A study of Mus musculus with 18 samples.

Results

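The proximal-type adenomas are 3 of 18 intestinal tumours, chosen by their Gata4 transcript level: their libraries held more than 100 Gata4 counts per 1000000 gene counts (unscaled CPM), and the 15 others are called distal-type. The tumours came from male C57BL/6 mice that all carried the Min allele of Apc (ApcMin/+), which cuts short a protein that holds Wnt signalling in check, so every group shares the same driver of adenoma growth. The mice differed in Macrod2, which encodes an enzyme that removes ADP-ribose from proteins, and 6 numbered mice of each genotype, wild type (wt), heterozygous (het) and homozygous null (hom), gave 1 tumour each. Bulk RNA of the resected tumours was sequenced, and the study asked which transcripts differed by Macrod2 genotype. The proximal-type tumours were wt 1, wt 2 and het 4. The distal-type tumours were 4 wt, 5 het and 6 hom tumours, so no hom tumour was proximal-type. The labels place het 4 in the small intestine and the other 17 tumours in the large intestine. They give no age and no position along the gut, and they do not say whether a resected tumour held normal mucosa.

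GATA4 is a zinc finger transcription factor that is made in the epithelium of the duodenum and jejunum and falls away towards the ileum, while its relatives GATA5 and GATA6 are made along more of the gut. In mice, loss of GATA4 from the jejunum is known to lower genes of proximal absorption, such as lactase and fatty acid binding protein 1, and to raise ileal genes of bile acid uptake. Colonic epithelium is known for carbonic anhydrase 1 and for posterior Hox genes, and it has hardly any Paneth cells.

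The values that sorted the tumours are a description and were not tested. Gata4 (mm10 chromosome 14 from 63198914 to 63271712) stood at 166 unscaled CPM in wt 1, 153 in wt 2 and 158 in het 4, against 0.290 to 46.1 (median 17.6) in the distal-type tumours. The tumour just inside the threshold was wt 2 at 153 and the one just outside it was hom 3 at 46.1. Below the threshold Gata4 still varied, and 11 distal-type tumours lay between 10.7 and 46.1 and the other 4, wt 4, het 5, hom 5 and wt 6, lay between 0.290 and 3.03.

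**Figure D1:**
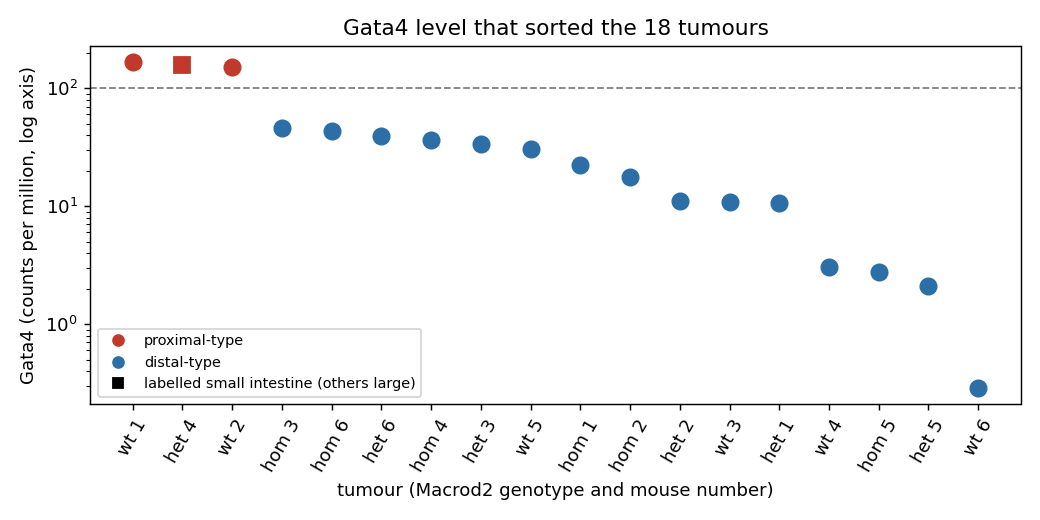
Gata4 level in unscaled CPM (log axis) in each of the 18 tumours, with the threshold of 100 as a dashed line. The 3 proximal-type tumours (red) sit between 153 and 166, and the 15 distal-type tumours (blue) run down from 46.1 to 0.290; the square is het 4, the one tumour labelled small intestine.

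Levels are given from here on in CPM scaled by TMM factors, called CPM. Total gene counts ran from 13529204 to 20857918 per library, and 27.0% of the counts in the distal-type tumour wt 3 fell on Rn45s, the precursor of ribosomal RNA, which held at most 0.725% elsewhere. Macrod2 itself was lowest in hom tumours, at 0 to 0.409 CPM in hom, 1.63 to 3.45 CPM in het and 2.96 to 4.55 CPM in wt tumours. The site labels were checked against marker genes. In the 17 tumours labelled large intestine, the colonic gene Car1 had a median of 0.153 CPM and 3 counts or fewer in 11 tumours, and the posterior Hox genes Hoxb13 and Hoxd13 had 3 counts or fewer in 15 and 14 of them. The Paneth cell gene Lyz1 was present in all of them, at 551 to 2702 CPM, and the ileal gene Fabp6 reached 1650 CPM. The data therefore go against the label of large intestine for most of these tumours, and the types are called by the Gata4 rule alone. Of the other genes listed as proximal markers, Lct, Apoa4, Fabp1 and Rbp2 were higher in the proximal-type tumours and Onecut2 was lower, as described below.

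Across the genome the proximal-type tumours differed from the distal-type tumours mostly by genes that were higher. Of 14642 genes tested without Gata4, 748 were higher (5.11%) and 338 were lower (2.31%) in proximal-type tumours, 1086 in all (7.42%), by edgeR's quasi-likelihood test with Macrod2 genotype as a covariate and a Benjamini-Hochberg adjusted p below 0.05. The fold changes were larger on the higher side, with 96 genes at least 3 log2 units higher and 9 at least 3 log2 units lower, while the median log2 fold change of all tested genes was -0.09. In 471 genes (3.22%) all 3 proximal-type values lay above all 15 distal-type values, and in 222 genes (1.52%) all 3 lay below. Of these, 419 and 149 were among the genes called higher and lower. The types were set by a transcript of these same libraries, so the p-values measure how closely other genes followed that split against the spread between tumours, and not a difference between groups chosen independently. Without wt 2 the counts were 331 higher and 58 lower, and without wt 1 they were 457 and 180. Without the 4 distal-type tumours under 10 unscaled CPM of Gata4, an alternative chosen after the data were seen, they were 258 and 63.

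**Figure D2:**
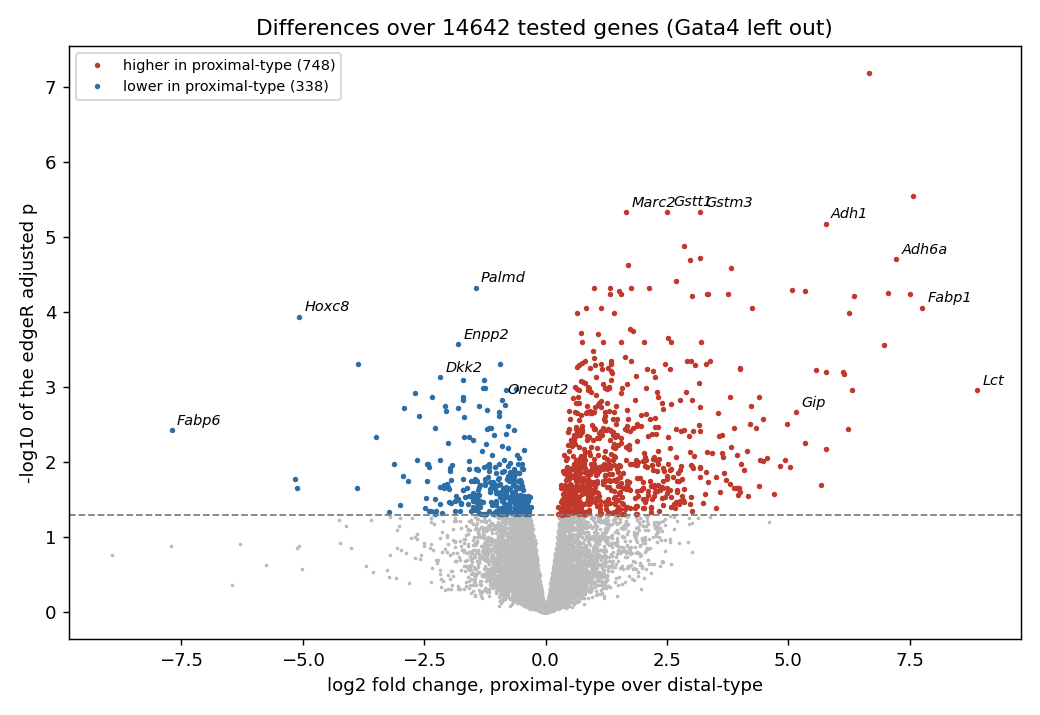
Log2 fold change, proximal-type over distal-type, of 14642 genes against −log10 of the edgeR adjusted p, with the threshold of 0.05 as a dashed line. The 748 genes called higher (red) reach further from 0 than the 338 called lower (blue), and Lct lies farthest to the right.

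Lactase was the gene with the largest fold change among those called. Lct, which splits milk sugar at the brush border, had 924 CPM in wt 1, 1629 CPM in wt 2 and 807 CPM in het 4, against 0.305 to 45.2 CPM (median 2.42 CPM) in the distal-type tumours (log2 fold change 8.89, SE 1.40, edgeR adjusted p = 0.0011). Every proximal-type tumour held over 10 times the CPM of the highest distal-type tumour. Fabp1, a fatty acid binding protein of enterocytes, had 2526, 1705 and 1658 CPM in proximal-type tumours, against 1.94 to 356 CPM (median 16.5) in distal-type tumours, where the 3 values follow the order wt 1, wt 2 and het 4 here and from now on (log2 fold change 7.76, SE 0.91, edgeR adjusted p = 8.76e-05). The ileal counterpart Fabp6, which binds bile acids, ran the other way, with 2.06, 1.69 and 2.26 CPM in proximal-type tumours, against 11.5 to 1650 CPM (median 660) in distal-type tumours (log2 fold change -7.70, SE 1.44, edgeR adjusted p = 0.00379). No proximal-type tumour overlapped the distal-type range for any of these genes. Fabp6 kept its direction but not its call under limma-voom, an alternative test, and in wt tumours alone. Lct had no result under DESeq2, another alternative.

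The promoters of some strongly changed genes are printed because GATA factors bind a short motif, and they show where its letters lie. These genes were not drawn by a rule, and others as strongly changed, such as Fabp1 and Adh6a, are not printed. Their matches therefore do not show how often changed genes hold one. The shares given after the sequences cover all called genes with a single window. Each window runs from 250 bases before the transcription start to 50 bases after it (RefSeq, GRCm38.p6, the assembly of mm10), 5′ to 3′ on the strand of the gene, and capitals mark AGATAA or TGATAA on either strand, with no overlap between matches. Lct lies on the - strand at chr1:128328269-128328568, Adh1 on the + strand at chr3:138277335-138277634, Slc2a2 on the + strand at chr3:28697653-28697952, Gip on the + strand at chr11:96024295-96024594 and Fabp6 on the - strand at chr11:43601513-43601812.
Lct: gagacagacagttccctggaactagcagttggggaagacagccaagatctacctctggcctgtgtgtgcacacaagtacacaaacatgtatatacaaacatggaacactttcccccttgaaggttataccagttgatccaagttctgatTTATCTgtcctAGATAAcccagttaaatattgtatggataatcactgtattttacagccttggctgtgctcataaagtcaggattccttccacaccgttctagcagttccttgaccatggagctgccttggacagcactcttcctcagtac
Adh1: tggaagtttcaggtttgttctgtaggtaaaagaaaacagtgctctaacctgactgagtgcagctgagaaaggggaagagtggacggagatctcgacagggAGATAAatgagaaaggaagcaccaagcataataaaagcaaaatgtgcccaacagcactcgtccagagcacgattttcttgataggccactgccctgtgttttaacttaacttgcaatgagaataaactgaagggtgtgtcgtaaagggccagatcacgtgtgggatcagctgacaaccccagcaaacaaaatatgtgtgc
Slc2a2: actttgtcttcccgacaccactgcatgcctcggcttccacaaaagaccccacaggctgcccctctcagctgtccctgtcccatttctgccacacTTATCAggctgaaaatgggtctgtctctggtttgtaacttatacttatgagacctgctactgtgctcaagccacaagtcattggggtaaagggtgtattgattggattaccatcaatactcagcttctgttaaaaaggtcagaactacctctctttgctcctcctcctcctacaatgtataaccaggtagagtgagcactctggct
Gip: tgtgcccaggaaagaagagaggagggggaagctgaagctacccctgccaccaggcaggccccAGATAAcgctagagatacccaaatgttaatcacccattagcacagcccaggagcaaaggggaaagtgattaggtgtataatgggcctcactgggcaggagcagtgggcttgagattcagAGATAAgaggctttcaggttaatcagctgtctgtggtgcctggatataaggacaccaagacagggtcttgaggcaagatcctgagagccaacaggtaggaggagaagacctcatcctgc
Fabp6: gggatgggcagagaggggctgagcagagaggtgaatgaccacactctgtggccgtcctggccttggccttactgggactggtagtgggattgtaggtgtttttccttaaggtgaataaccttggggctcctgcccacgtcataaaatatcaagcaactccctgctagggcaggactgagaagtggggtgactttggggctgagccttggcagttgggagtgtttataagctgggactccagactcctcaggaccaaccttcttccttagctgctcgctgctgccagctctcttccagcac
The Lct window held 2 matches, starting at -101 and -90 from the start site, the Gip window 2, at -188 and -69, the Adh1 window 1, at -150, and the Slc2a2 window 1, at -156. The Fabp6 window held none of these letters. Among genes with a single window in the table, 16.3% of 442 called higher and 9.5% of 200 called lower held a match, against 10.7% of 8691 tested, and the share was 33.8% of 68 genes called at least 3 log2 units higher. Over all 32851 windows of the table it was 18.6%. A match is a run of letters and does not show that a factor binds there.

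Genes of the brush border were higher in part. Of 22 tested brush border enzymes 7 were higher (31.8%) and 0 lower, with a median log2 fold change of 1.62 over the list. Over all tested genes 5.11% were higher and 2.31% lower, and these shares are the background for this list and each list below. Enpp3, an ectonucleotidase of the absorptive surface, had 105, 635 and 167 CPM in proximal-type tumours, against 0.223 to 16.9 CPM (median 2.61) in distal-type tumours (log2 fold change 6.97, SE 0.92, edgeR adjusted p = 0.000275). Mme (neprilysin) and Alpi (intestinal alkaline phosphatase) were higher by 4.47 and 3.31 log2 units, edgeR adjusted p = 0.00954 and 0.0137, and Treh (trehalase) by 3.51, adjusted p = 0.0403. Sucrase-isomaltase, Sis, did not pass, with 1620, 765 and 957 CPM in proximal-type tumours, against 1.12 to 2493 CPM (median 489) in distal-type tumours (edgeR adjusted p = 0.212), and neither did the peptidases Anpep and Dpp4 (adjusted p = 0.466 and 0.208). The sucrase range of the distal-type tumours enclosed all 3 proximal-type values. Without wt 1 or without wt 2 the count of brush border enzymes was 4. In bulk RNA, more cells of a type and more RNA per cell cannot be told apart.

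Fat absorption was the list with the largest share of members higher. Of 26 genes 16 were higher and 0 lower, with a median log2 fold change of 2.08. Cd36, a fatty acid transporter, had 98.9, 137 and 46.8 CPM in proximal-type tumours, against 0.223 to 14.3 CPM (median 1.53) in distal-type tumours (log2 fold change 6.35, SE 0.72, edgeR adjusted p = 6.04e-05). Apoc2, an apolipoprotein of chylomicrons, had 607, 1406 and 453 CPM in proximal-type tumours, against 3.99 to 84.2 CPM (median 11.6) in distal-type tumours (log2 fold change 6.24, SE 0.75, edgeR adjusted p = 0.000105). The groups were separate for both. Acsl5, which activates long-chain fatty acids, had 1325, 1813 and 1386 CPM in proximal-type tumours, against 246 to 892 CPM (median 357) in distal-type tumours (log2 fold change 2.10, SE 0.31, edgeR adjusted p = 0.000581), and the highest distal-type value belonged to het 3. Mttp, which loads lipid onto apolipoprotein B, was higher by 3.66 log2 units (edgeR adjusted p = 0.00859). Apob itself missed the threshold, with 3308, 5477 and 2513 CPM in proximal-type tumours, against 146 to 2914 CPM (median 1248) in distal-type tumours (edgeR adjusted p = 0.0701). Without wt 1 or without wt 2 the list count was 12.

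The apolipoprotein cluster on chromosome 9 (mm10) was uneven. Apoa4, at 46240844 to 46243458, had 14194, 23325 and 8049 CPM in proximal-type tumours, against 13.5 to 6701 CPM (median 561) in distal-type tumours (log2 fold change 6.24, SE 1.15, edgeR adjusted p = 0.00359). Its neighbour Apoc3, at 46233050 to 46235636, was higher by 5.34 log2 units (edgeR adjusted p = 0.00559). Apoa1, the main protein of high-density lipoprotein, lies beside them at 46228630 to 46230469 and did not pass, with 9622, 13986 and 6726 CPM in proximal-type tumours, against 55.5 to 9072 CPM (median 2748) in distal-type tumours (log2 fold change 2.65, edgeR adjusted p = 0.078). Only wt 1 and wt 2 exceeded its distal-type range. Apoa5, an apolipoprotein of the liver at 46268608 to 46271921, was near its floor in both types, at most 0.242 CPM in the proximal-type and 1.04 CPM in the distal-type tumours.

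Sugar and amino acid carriers were higher in 8 of 17 and lower in 0, with a median of 2.05. Slc2a2, the basolateral glucose and fructose carrier GLUT2, had 98, 85.5 and 78 CPM in proximal-type tumours, against 0.372 to 23.9 CPM (median 0.967) in distal-type tumours (log2 fold change 6.32, SE 1.0, edgeR adjusted p = 0.00111). Slc7a8, an exchanger of neutral amino acids, had 143, 203 and 178 CPM in proximal-type tumours, against 6.03 to 54 CPM (median 22.2) in distal-type tumours (log2 fold change 3.31, SE 0.47, edgeR adjusted p = 0.000494). Both were separate between the types. Slc25a45, a mitochondrial carrier, and Slc5a4a, of the glucose cotransporter family, were higher by 2.47 and 4.97 log2 units (edgeR adjusted p = 0.000494 and 0.00312). Slc15a1, the peptide transporter, had 179, 280 and 132 CPM in proximal-type tumours, against 2.01 to 336 CPM (median 76.5) in distal-type tumours and did not pass (edgeR adjusted p = 0.268). Of 9 enzymes of fructose use and gluconeogenesis 5 were higher and 0 lower, with a median of 2.70. Khk, ketohexokinase, had 233, 141 and 124 CPM in proximal-type tumours, against 5.73 to 97.6 CPM (median 33.8) in distal-type tumours (log2 fold change 3.05, SE 0.64, edgeR adjusted p = 0.00827). Dak, triokinase, was higher by 1.67 log2 units (edgeR adjusted p = 0.00326). Without wt 2 the counts were 4 carriers and 3 enzymes, without wt 1 they were 5 and 4, and without wt 5 the enzymes were 3.

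**Figure D3:**
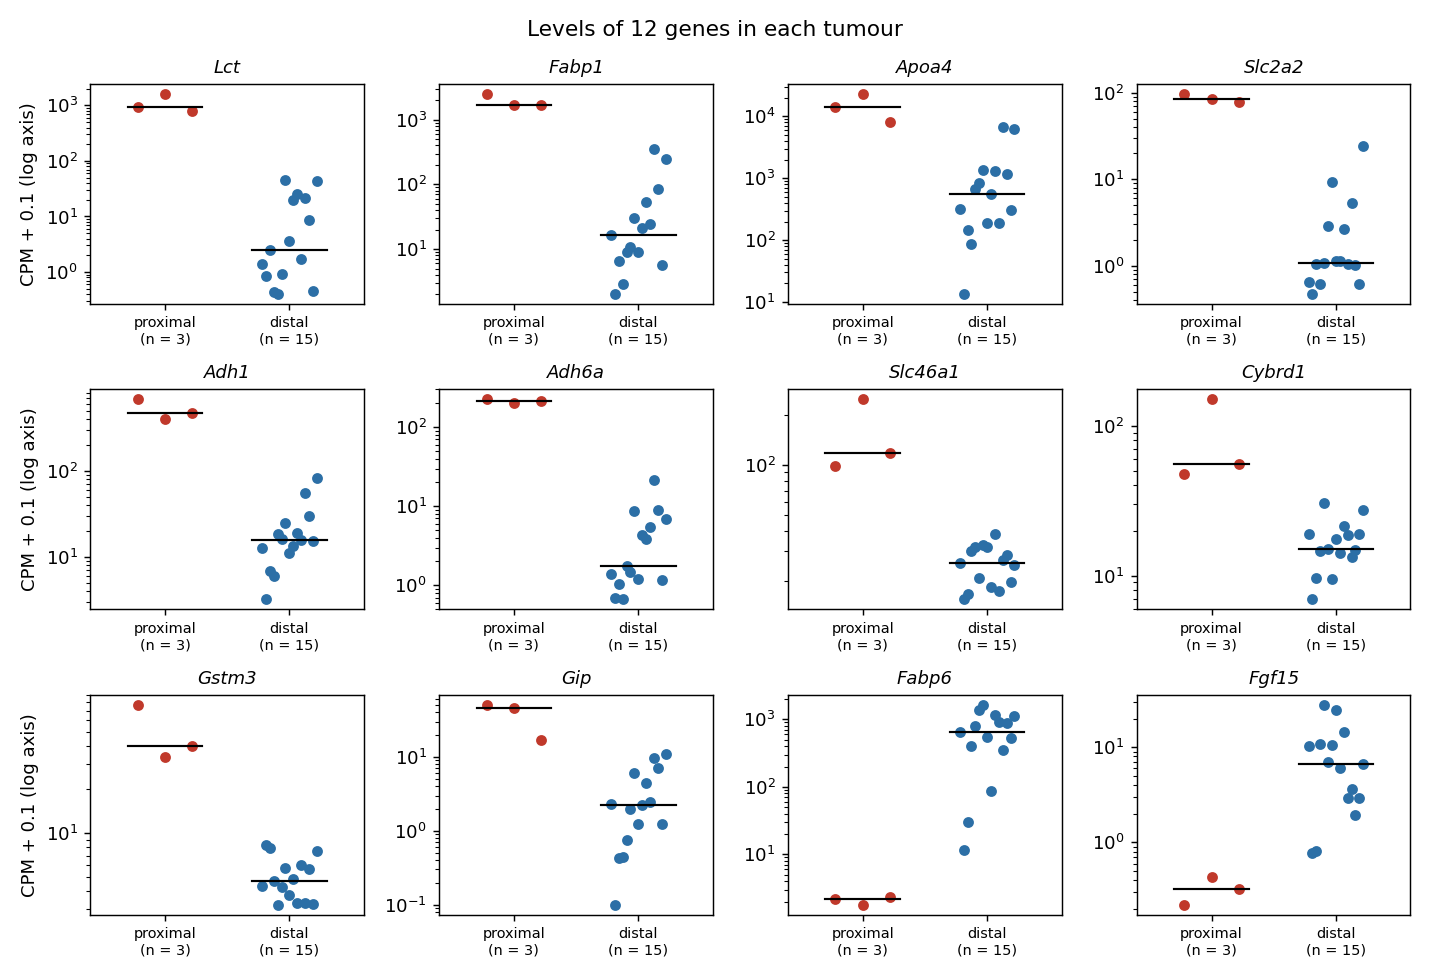
Levels of 12 genes in each tumour (CPM + 0.1, log axis), with 3 proximal-type tumours in red, 15 distal-type tumours in blue and the median of each type as a line. The types do not overlap in these 12 genes, which were picked for the figure and do not stand for all genes. Over all tested genes, 3.22% lay wholly above and 1.52% wholly below the distal-type tumours. Fabp6 and Fgf15 are the pair that is lower in the proximal-type tumours.

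Of the genes for uptake of iron, calcium and vitamins, 3 were higher (17.6% of those tested, against 5.11% of all tested genes) and 0 lower. Slc46a1, the proton-coupled folate transporter of the proximal small intestine, had 97.8, 249 and 117 CPM in proximal-type tumours, against 15.3 to 38.3 CPM (median 25.5) in distal-type tumours (log2 fold change 2.68, SE 0.29, edgeR adjusted p = 3.85e-05). Cybrd1, the ferric reductase known as duodenal cytochrome b, had 47.6, 150 and 55.6 CPM in proximal-type tumours, against 6.85 to 30.3 CPM (median 14.9) in distal-type tumours (log2 fold change 2.56, SE 0.38, edgeR adjusted p = 0.000581), and Slc23a1, a vitamin C transporter, had 34.2, 12.6 and 17.4 CPM in proximal-type tumours, against 0 to 8.76 CPM (median 0.625) in distal-type tumours (log2 fold change 5.77, SE 1.17, edgeR adjusted p = 0.00665). In Slc46a1 and Cybrd1 the highest of the 3 tumours was wt 2, and all 3 lay above the distal-type tumours. These were the only members called of 17 tested, and the count was 5 without wt 3. The iron importer Slc11a2 and the iron exporter Slc40a1 did not pass (edgeR adjusted p = 0.0781 and 0.677). Car2, a cytosolic carbonic anhydrase, had 28.6, 68 and 50.4 CPM in proximal-type tumours, against 8.2 to 16.8 CPM (median 12.6) in distal-type tumours (log2 fold change 2.13, SE 0.24, edgeR adjusted p = 4.74e-05).

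Alcohol dehydrogenases of 1 cluster were higher in part. On chromosome 3 (mm10), Adh1 (138277585 to 138290698) had 678 CPM in wt 1, 398 CPM in wt 2 and 467 CPM in het 4, against 3.13 to 82.1 CPM (median 15.5 CPM) in the distal-type tumours (log2 fold change 5.77, SE 0.50, edgeR adjusted p = 6.64e-06). Adh6a (138313286 to 138331134) had 226, 201 and 216 CPM in proximal-type tumours, against 0.565 to 21.4 CPM (median 1.63) in distal-type tumours (log2 fold change 7.23, SE 0.70, edgeR adjusted p = 1.98e-05). Adh4 (138415456 to 138432683) had 7.33, 8.32 and 5.03 CPM in proximal-type tumours, against 0 to 1.51 CPM (median 0.0924) in distal-type tumours (log2 fold change 7.06, SE 0.81, edgeR adjusted p = 5.64e-05). The 3 proximal-type tumours lay above all others in each, and Adh6a was nearly level among them. Adh5, at 138437200 to 138455499 in the same cluster, did not pass (log2 fold change -0.13, SE 0.15, edgeR adjusted p = 0.613). Adh7, also of the cluster, was too low to be tested, with 1.88, 0.541 and 0.961 CPM in proximal-type tumours, against 0 to 0.356 CPM (median 0.113) in distal-type tumours. Over the 18 tested genes of retinoid and alcohol metabolism 10 were higher and 1 lower, with a median of 1.37. Rbp2, the cellular retinol carrier of enterocytes, had 2690, 3365 and 2667 CPM in proximal-type tumours, against 114 to 2254 CPM (median 462) in distal-type tumours (log2 fold change 3.17, SE 0.49, edgeR adjusted p = 0.000897). The exception was Stra6, a membrane receptor for retinol binding protein, with 136, 196 and 176 CPM in proximal-type tumours, against 227 to 547 CPM (median 368) in distal-type tumours (log2 fold change -1.04, SE 0.23, edgeR adjusted p = 0.0117), and it lost its call without wt 1 or het 4. The count of higher members was 5 without wt 2 and 6 without wt 1.

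Glutathione transferases, which attach glutathione to foreign compounds, were higher in part. Of 22 glutathione transferases 10 were higher and 0 lower, with a median of 0.66, and the count was 8 to 11 with each tumour left out in turn. Gstt1 had 31.9, 25.4 and 23.5 CPM in proximal-type tumours, against 3.18 to 8.4 CPM (median 4.68) in distal-type tumours (log2 fold change 2.51, SE 0.21, edgeR adjusted p = 4.63e-06). Gstm3 had 76.8, 33.4 and 40.1 CPM in proximal-type tumours, against 3.1 to 8.19 CPM (median 4.58) in distal-type tumours (log2 fold change 3.19, SE 0.28, edgeR adjusted p = 4.7e-06). Neither overlapped between the types, although mu-class genes are close copies among which reads may be split uncertainly. Of 24 cytochrome P450 genes of drug and fat metabolism 9 were higher and 0 lower, with a median of 1.40. Cyp2b10 had 115, 160 and 82.4 CPM in proximal-type tumours, against 0.452 to 34.8 CPM (median 2.33) in distal-type tumours (log2 fold change 6.14, SE 0.91, edgeR adjusted p = 0.000676), and Cyp2c66 was higher by 4.40 log2 units (edgeR adjusted p = 0.00135). The nuclear receptor genes Nr1i3 and Nr1i2, known as regulators of such genes, were also called higher. Their part in these differences was not tested. Nr1i3, the nuclear receptor CAR, had 27, 8.93 and 12.6 CPM in proximal-type tumours, against 0 to 8.58 CPM (median 1.47) in distal-type tumours (log2 fold change 4.48, SE 0.81, edgeR adjusted p = 0.0027), and Nr1i2, the receptor PXR, had 66.4, 64.3 and 47.6 CPM in proximal-type tumours, against 13.5 to 51.8 CPM (median 33.8) in distal-type tumours (log2 fold change 1.21, SE 0.27, edgeR adjusted p = 0.0108), where het 4 lay below the highest distal-type tumour. Without wt 2 the P450 count was 3, and Nr1i2 lost its call without wt 1 or wt 2 and with no genotype term.

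Genes of adenosine handling and of fat oxidation followed. Ada, adenosine deaminase, which is known for its high level in the mouse duodenum, had 359, 1118 and 387 CPM in proximal-type tumours, against 12 to 192 CPM (median 31.4) in distal-type tumours (log2 fold change 4.34, SE 0.80, edgeR adjusted p = 0.00353). Adora2b, a receptor for adenosine, had 8.24, 8.72 and 9.67 CPM in proximal-type tumours, against 0.307 to 1.71 CPM (median 0.791) in distal-type tumours (log2 fold change 3.32, SE 0.38, edgeR adjusted p = 5.71e-05). The types were separate for both, and 6 of 14 genes of the list were higher with 0 lower (median 1.19), a count that fell to 2 without wt 2 and was 3 without wt 1 or wt 5. Among 20 genes of fat oxidation 9 were higher and 0 lower (median 0.62). The log2 fold changes of these 9 ran from 0.58 to 2.69. Cpt2, a carnitine palmitoyltransferase of mitochondria, had 121, 121 and 121 CPM in proximal-type tumours, against 71.8 to 90.1 CPM (median 76.9) in distal-type tumours (log2 fold change 0.65, SE 0.08, edgeR adjusted p = 0.000105), and Hadh, a dehydrogenase of the same pathway, was higher by 1.31 log2 units (edgeR adjusted p = 0.00101). Creb3l3, a factor that activates genes of lipid metabolism, had 436, 416 and 259 CPM in proximal-type tumours, against 14.2 to 317 CPM (median 96) in distal-type tumours (log2 fold change 2.69, SE 0.56, edgeR adjusted p = 0.00868), with het 4 below the highest distal-type tumour, hom 3.

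**Figure D4:**
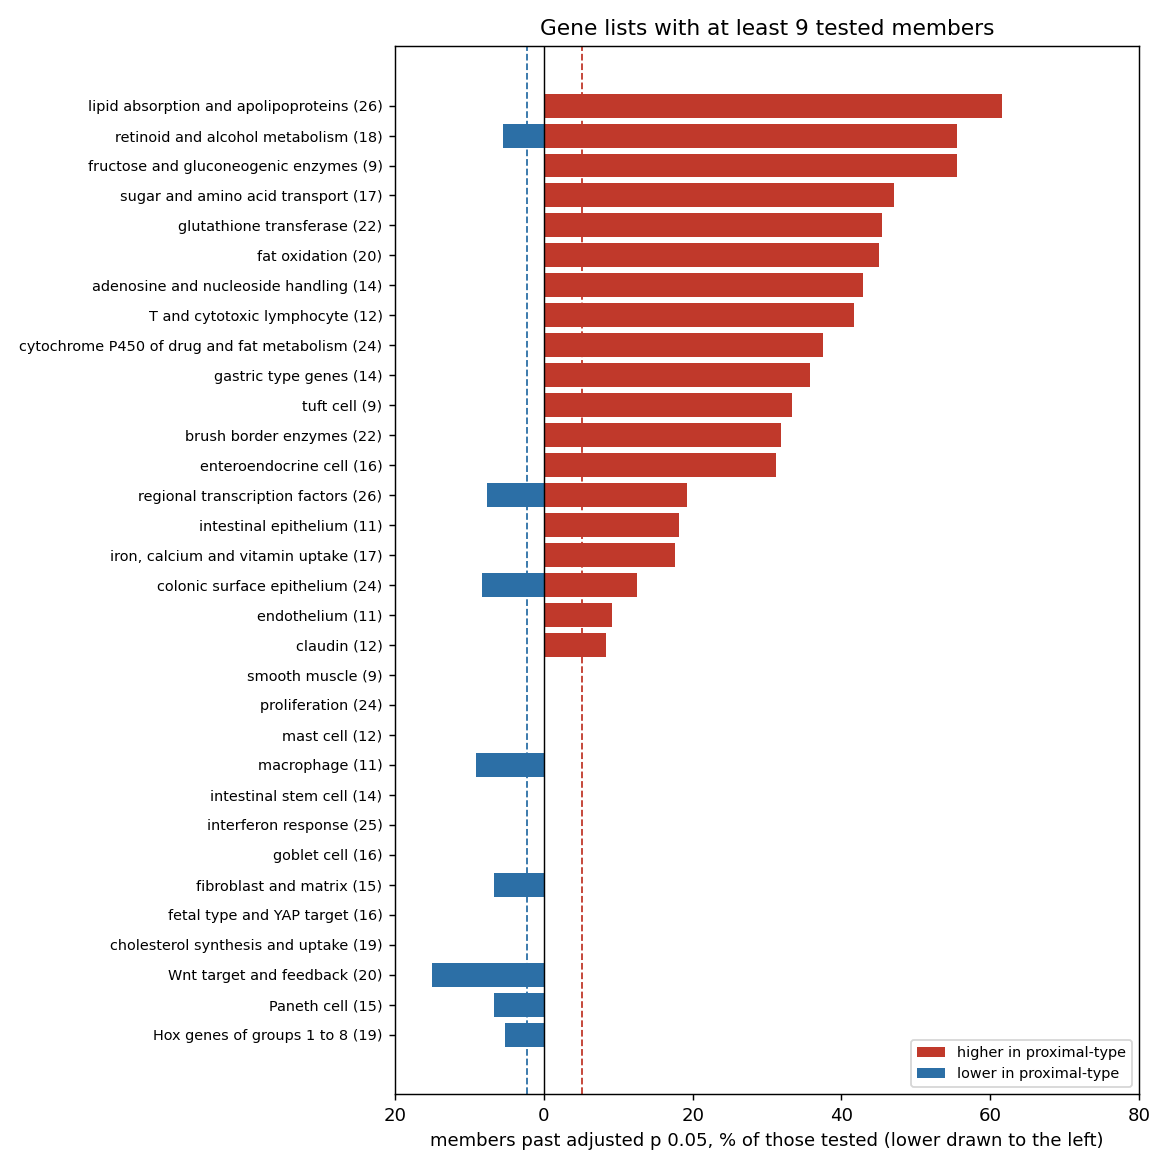
Share of tested members called higher (right, red) or lower (left, blue) in proximal-type tumours for each gene list with at least 9 tested members, whose number is in brackets. Dashed lines mark the shares over all 14642 genes, 5.11% higher and 2.31% lower; the fat absorption list reaches 61.5%, and several lists have no member called.

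Among the named genes with the smallest p on the higher side were several outside digestion. Marc2, a molybdenum enzyme of the outer mitochondrial membrane, had 499, 565 and 406 CPM in proximal-type tumours, against 126 to 210 CPM (median 160) in distal-type tumours (log2 fold change 1.66, SE 0.14, edgeR adjusted p = 4.7e-06). Paqr7, a membrane progestin receptor, had 58.2, 60.4 and 77.8 CPM in proximal-type tumours, against 5.36 to 22.5 CPM (median 10.9) in distal-type tumours (log2 fold change 2.85, SE 0.27, edgeR adjusted p = 1.33e-05). Sec14l2, a lipid-binding protein of the Sec14 family, had 90.9, 110 and 79.7 CPM in proximal-type tumours, against 5.83 to 26.5 CPM (median 11.9) in distal-type tumours (log2 fold change 3.18, SE 0.32, edgeR adjusted p = 1.88e-05). All of these were separate between the types. Efr3b, a scaffold for a phosphoinositide kinase at the plasma membrane, was higher by 2.99 log2 units, Slc4a5, a sodium bicarbonate cotransporter, by 3.82, Plekhf1, an endosomal adaptor, by 1.70, Cox7a1, a subunit of cytochrome c oxidase, by 1.76, Rmdn3, a tether between mitochondria and endoplasmic reticulum, by 1.33, and Dhrs1, a short-chain dehydrogenase, by 1.52. Their edgeR adjusted p-values ran from 2.04e-05 to 5.3e-05. Each of these 9 genes kept its call with any 1 of the 18 tumours left out.

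Hormone and tuft cell genes were higher in part. Gip, the hormone of K cells of the upper small intestine, had 50.7, 46.2 and 16.6 CPM in proximal-type tumours, against 0 to 11 CPM (median 2.15) in distal-type tumours (log2 fold change 5.16, SE 0.90, edgeR adjusted p = 0.00217). Cck, cholecystokinin, had 7.64, 12.3 and 4.98 CPM in proximal-type tumours, against 0.33 to 4.76 CPM (median 2.29) in distal-type tumours (log2 fold change 2.34, SE 0.50, edgeR adjusted p = 0.0092). In both, het 4 was the lowest of the 3 tumours but still above the distal-type range. Chga and Chgb, granins of endocrine cells in general, were higher by 1.71 and 1.66 log2 units (edgeR adjusted p = 0.0066 and 0.00935). In all, 5 of 16 tested genes of enteroendocrine cells were higher and 0 lower, 3 without wt 2, and their summed level was 236, 285 and 123 CPM in proximal-type tumours, against 27.4 to 135 CPM in distal-type tumours. Of 9 tested tuft cell genes 3 were higher, among them the taste channel Trpm5 (log2 fold change 2.04, SE 0.44, edgeR adjusted p = 0.00862), and none without wt 2.

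Genes of stomach type were higher in part, and the Reg family was divided. Anxa10, an annexin of gastric epithelium, had 273, 386 and 272 CPM in proximal-type tumours, against 41.9 to 189 CPM (median 79.9) in distal-type tumours (log2 fold change 1.60, SE 0.37, edgeR adjusted p = 0.0138). Gkn2, a gastrokine, had 4.85, 9.4 and 3.9 CPM in proximal-type tumours, against 0 to 1.87 CPM (median 0.201) in distal-type tumours (log2 fold change 3.32, SE 0.69, edgeR adjusted p = 0.00738), and Tff2, a trefoil peptide, had 11.4, 253 and 58.5 CPM in proximal-type tumours, against 0.632 to 33.5 CPM (median 2.81) in distal-type tumours (log2 fold change 4.41, SE 1.09, edgeR adjusted p = 0.0211). Tff2 was highest in wt 2, and wt 1 lay inside the distal-type range. Of 14 genes of this list 5 were higher and 0 lower, but only 1 without wt 2 and 3 without het 4. Reg1, a lectin of the pancreatic stone protein family, had 33.2, 76.4 and 130 CPM in proximal-type tumours, against 3.07 to 21.8 CPM (median 8.04) in distal-type tumours (log2 fold change 2.92, SE 0.41, edgeR adjusted p = 0.00045), and Reg3a had 180, 132 and 84.4 CPM in proximal-type tumours, against 1.49 to 52.5 CPM (median 26.2) in distal-type tumours (log2 fold change 2.85, SE 0.72, edgeR adjusted p = 0.023). Both lay above the distal-type tumours in all 3, but the other 3 of 5 tested Reg genes did not pass and the list median was 0.02. The summed Reg level, at 3238, 779 and 2863 CPM in proximal-type tumours, lay inside the range of 618 to 9245 CPM of the distal-type tumours. The count of Reg genes called was 1 without wt 1 or wt 2.

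Ileal bile acid genes were split. Besides Fabp6, the hormone gene Fgf15, which signals bile acid return to the liver, had 0.121, 0.338 and 0.226 CPM in proximal-type tumours, against 0.67 to 27.9 CPM (median 6.49) in distal-type tumours (log2 fold change -5.16, SE 1.23, edgeR adjusted p = 0.0165), and it lost its call without wt 1, wt 2 or het 4. Slc10a2, the apical bile acid transporter of the ileum, had 2.55, 3.58 and 2.71 CPM in proximal-type tumours, against 4.84 to 118 CPM (median 48.1) in distal-type tumours, all 3 below the distal-type tumours but not past the threshold (log2 fold change -3.59, SE 1.10, edgeR adjusted p = 0.0583). Abcc3, another bile salt exporter, was higher (log2 fold change 1.10, SE 0.29, edgeR adjusted p = 0.0282), a call lost without wt 1, wt 2, wt 5 or het 4. Of 8 tested genes of the list 2 were lower and 1 higher, and the other 5 did not pass. Among the distal-type tumours Fabp6 ran over a wide range, and its lowest tumour still had over 5 times the highest proximal-type value.

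Genes listed as colonic surface markers did not move one way, with 3 of 24 higher (12.5%) and 2 lower (8.33%), against 5.11% and 2.31% of all tested genes. Guca2b, which encodes uroguanylin and is also made in the small intestine, had 818, 737 and 472 CPM in proximal-type tumours, against 26.1 to 443 CPM (median 149) in distal-type tumours (log2 fold change 3.02, SE 0.66, edgeR adjusted p = 0.0111). Tmigd1, an adhesion protein of epithelia, had 4.37, 4.94 and 3.79 CPM in proximal-type tumours, against 3.87 to 462 CPM (median 264) in distal-type tumours (log2 fold change -5.11, SE 1.28, edgeR adjusted p = 0.0222), and the proximal-type tumours lay beside the lowest distal-type tumour. Trpm6, a magnesium channel, was lower by a smaller step (log2 fold change -1.13, SE 0.28, edgeR adjusted p = 0.0219). Tmigd1 and Trpm6 both lost their calls without wt 2 or het 4, and Tmigd1 also without wt 1. Car1 had 0.0606, 1.55 and 0 CPM in proximal-type tumours, against 0.0521 to 6.61 CPM (median 0.153) in distal-type tumours, and the types overlapped (edgeR adjusted p = 0.614).

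Genes lower in the proximal-type tumours had smaller fold changes. Palmd, palmdelphin, had 29.8, 38.9 and 40.5 CPM in proximal-type tumours, against 75.8 to 120 CPM (median 97.4) in distal-type tumours (log2 fold change -1.44, SE 0.16, edgeR adjusted p = 4.74e-05). Enpp2, autotaxin, which makes lysophosphatidic acid, had 6.24, 6.49 and 8.99 CPM in proximal-type tumours, against 15.3 to 34.8 CPM (median 23.4) in distal-type tumours (log2 fold change -1.80, SE 0.24, edgeR adjusted p = 0.000267). Pid1, an adaptor with a phosphotyrosine interaction domain, had 0.97, 1.28 and 0.452 CPM in proximal-type tumours, against 3.96 to 23.3 CPM (median 14.5) in distal-type tumours (log2 fold change -3.86, SE 0.56, edgeR adjusted p = 0.000496). The types were separate in each. Hoxc8 had 2 counts in the proximal-type libraries together and 453 in the distal-type libraries, where each held 13 to 52, a ratio of levels of 0.0242 (95% exact interval 0.00292 to 0.088, counting error only; log2 fold change -5.08, SE 0.64, edgeR adjusted p = 0.000115). The transcription factors Foxc1 and Camta1 were lower as well, with log2 fold changes of -1.29 and -1.27 (edgeR adjusted p = 0.00104 and 0.000798), as were the channels Trpm1 (-2.68, adjusted p = 0.00122) and Aqp9 (-2.91, adjusted p = 0.00189) and the cytokine subunit gene Il23a (-1.36, adjusted p = 0.0018). The same held for Rassf10, Trabd2b, Tmod1, Ripply1 and Apod (log2 fold changes -1.25, -1.69, -2.06, -1.81 and -1.21, edgeR adjusted p = 0.00104 to 0.00203).

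A few genes of Wnt targets and feedback were lower, and most did not pass. Dkk2, a secreted Wnt antagonist, had 11.9, 11.8 and 16.6 CPM in proximal-type tumours, against 22.9 to 92.3 CPM (median 60.9) in distal-type tumours (log2 fold change -2.18, SE 0.33, edgeR adjusted p = 0.000742). Wif1, which binds Wnt ligands, had 237, 199 and 244 CPM in proximal-type tumours, against 162 to 776 CPM (median 551) in distal-type tumours (log2 fold change -1.24, SE 0.30, edgeR adjusted p = 0.0187), with the distal-type tumour het 6 below all 3 proximal-type tumours. The feedback target Axin2 had 206, 119 and 200 CPM in proximal-type tumours, against 202 to 434 CPM (median 334) in distal-type tumours and did not pass (log2 fold change -0.77, SE 0.24, edgeR adjusted p = 0.0554). Of 20 genes of Wnt targets and feedback 3 were lower (15%, against 2.31% of all tested genes) and 0 higher. The third was the transcription factor Tcf7 (log2 fold change -0.50, SE 0.14, edgeR adjusted p = 0.0416). The list had a median of -0.42 against -0.09 over all tested genes, and 2 of its 20 estimates were higher. Wif1 lost its call without wt 1 or wt 2, and Tcf7 with any of 10 tumours left out. Without het 4 the number of lower members was 7, without het 6 it was 6, and it was 1 without wt 1 or wt 2. Apc itself had 150, 141 and 178 CPM in proximal-type tumours, against 97.4 to 243 CPM (median 149) in distal-type tumours and Macrod2 4.55, 4.06 and 1.64 CPM in proximal-type tumours, against 0 to 4.01 CPM (median 1.82) in distal-type tumours, and neither passed (edgeR adjusted p = 0.842 and 0.94).

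Some of the other transcription factors of gut regions were called, in either direction, and most were not. On the per-length scale of the authors' deposited RPKM values, Gata4 had 50.3, 52.9 and 49.0 RPKM in wt 1, wt 2 and het 4, against 0.083 to 14.0 in distal-type tumours, while Gata5 had 34.0, 39.0 and 46.8 RPKM against 28.5 to 48.4 and Gata6 33.3, 30.4 and 29.8 RPKM against 22.5 to 35.9. Gata5 and Gata6 did not pass (edgeR adjusted p = 0.618 and 0.441), nor did Cdx1, Cdx2, Hnf4a or Hnf4g (adjusted p = 0.83, 0.218, 0.145 and 0.134). Pdx1, a factor of the duodenum and pancreas, had 2.24, 3.18 and 3.96 CPM in proximal-type tumours, against 0.0521 to 3.62 CPM (median 0.796) in distal-type tumours (log2 fold change 2.01, SE 0.58, edgeR adjusted p = 0.0407), a call lost with any of 9 tumours left out. Onecut2, which is known to be high in the duodenum of mice, went the other way, with 91.8, 123 and 124 CPM in proximal-type tumours, against 162 to 282 CPM (median 216) in distal-type tumours (log2 fold change -0.90, SE 0.15, edgeR adjusted p = 0.00148). Esrra, a nuclear receptor of oxidative metabolism, was higher (log2 fold change 0.79, SE 0.16, edgeR adjusted p = 0.00664). Of 26 tested factors 5 were higher (19.2%) and 2 lower (7.69%), against 5.11% and 2.31% of all tested genes. Without wt 1 or wt 2 the higher ones were 3.

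The HoxB genes varied mostly among the distal-type tumours. Hoxb3 to Hoxb9, 7 neighbouring genes, stood at no more than 0.811 CPM in any proximal-type tumour. Among the distal-type tumours, Hoxb9 was at 8.75 to 139 CPM in 8 and at 1.11 CPM or less in 7. All 4 distal-type tumours with Gata4 under 10 unscaled CPM had Hoxb9 at 59.0 to 139 CPM. With this spread 0 of the 7 genes passed between the types by edgeR. Over the list of Hox genes of groups 1 to 8, edgeR called 1 lower and DESeq2, an alternative test, called 7 lower. Fabp6 was at 11.5 to 1360 CPM in the 8 distal-type tumours with Hoxb9 above 5 CPM and at 29.8 to 1650 CPM in the 7 others, so the Fabp6 difference from the proximal-type tumours was present in both.

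Stem cell, proliferation and secretory genes gave no or few calls. None of 14 intestinal stem cell genes, 24 proliferation genes, 16 fetal-type and YAP target genes, 16 goblet cell genes and 19 genes of cholesterol synthesis passed. Over all tested genes 7.42% passed, a share at which lists this short hold few calls. Lgr5, a marker of crypt stem cells, had 110, 65.8 and 164 CPM in proximal-type tumours, against 113 to 316 CPM (median 183) in distal-type tumours (log2 fold change -0.76, SE 0.28, edgeR adjusted p = 0.11), and Mki67, of dividing cells, had 256, 203 and 324 CPM in proximal-type tumours, against 110 to 422 CPM (median 264) in distal-type tumours (log2 fold change -0.21, SE 0.30, edgeR adjusted p = 0.701). Of 15 tested Paneth cell genes only Mmp7, a protease that activates defensins, passed, with 378, 200 and 397 CPM in proximal-type tumours, against 509 to 1437 CPM (median 823) in distal-type tumours (log2 fold change -1.39, SE 0.32, edgeR adjusted p = 0.0127), and it did not without wt 2. Paneth cell genes near-identical in sequence, the defensins, were not called. Epcam, the general epithelial marker, had 2531, 3271 and 2643 CPM in proximal-type tumours, against 2421 to 3738 CPM (median 2955) in distal-type tumours (edgeR adjusted p = 0.505).

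Of the markers of mature enterocytes, Vil1 and Krt20 were higher in proximal-type tumours, while Sis, Anpep and Dpp4 did not pass, as given above. Vil1, villin of the brush border, had 1519, 1797 and 1567 CPM in proximal-type tumours, against 444 to 1713 CPM (median 859) in distal-type tumours (log2 fold change 1.05, SE 0.27, edgeR adjusted p = 0.0253), and Krt20, a keratin of mature surface cells, had 2212, 2888 and 1838 CPM in proximal-type tumours, against 364 to 1863 CPM (median 1012) in distal-type tumours (log2 fold change 1.54, SE 0.37, edgeR adjusted p = 0.0159). Both overlapped between the types and lost their calls without wt 2 and with no genotype term, Vil1 also without wt 1, wt 4 or wt 5. Of 11 genes of the intestinal epithelium these 2 were higher. Their part in the absorptive differences was not tested. Between het 4 and het 3, the distal-type tumour with the highest villin level, absorptive genes differed in either direction. Vil1 was at 1567 CPM in het 4 and 1713 CPM in het 3. Lct was at 807 CPM in het 4 and 45.2 CPM in het 3, and Fabp1 at 1658 CPM in het 4 and 30.3 CPM in het 3. The reverse order held for Sis, at 957 CPM in het 4 and 1232 CPM in het 3, and for Anpep, at 2350 CPM in het 4 and 4675 CPM in het 3. These are single tumours and the genes were picked after their values were seen.

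Immune and stromal markers differed in places. Mast cell genes had a summed level of 143 CPM in wt 1, 8134 CPM in wt 2 and 1357 CPM in het 4, against 42.0 to 1727 CPM in distal-type tumours, and 0 of 12 passed although their median log2 fold change was 2.0. Genes of T and cytotoxic lymphocytes summed to 72.2, 193 and 56.3 CPM in proximal-type tumours, against 16.0 to 48.9 CPM, and 5 of 12 were higher, such as the granzyme gene Gzma, with 32.5, 76.1 and 20.2 CPM in proximal-type tumours, against 1.34 to 17.5 CPM (median 7.39) in distal-type tumours (log2 fold change 3.18, SE 0.71, edgeR adjusted p = 0.0117). None of these 5 calls was left without wt 2, and the count was 2 without wt 4, 1 without wt 5 and 3 without wt 6. Fn1, fibronectin, was the only fibroblast and matrix gene of 15 called, with 128, 153 and 186 CPM in proximal-type tumours, against 183 to 480 CPM (median 323) in distal-type tumours (log2 fold change -1.21, SE 0.23, edgeR adjusted p = 0.00359). The endothelial receptor gene Tek had 29, 25.4 and 43.1 CPM in proximal-type tumours, against 1.85 to 23.5 CPM (median 4.13) in distal-type tumours (log2 fold change 2.15, SE 0.52, edgeR adjusted p = 0.018) and lost its call without het 4, while the other 10 endothelial genes did not pass. B lymphocyte genes summed to 139, 287 and 154 CPM in proximal-type tumours, against 2.98 to 131 CPM in distal-type tumours, with 0 of 4 tested genes called. The pancreatic acinar markers Cpa1, Cpb1 and Prss2 stood at 0.0745 CPM or less in every tumour, and 0 of 3 tested acinar genes were called. Of 6 tested liver genes 2 were lower (33.3%) and 1 higher (16.7%), against 2.31% and 5.11% of all tested genes. Alb, albumin, had 40.4, 37.4 and 83 CPM in proximal-type tumours, against 93.4 to 427 CPM (median 262) in distal-type tumours (log2 fold change -2.27, SE 0.42, edgeR adjusted p = 0.00353), and Apoh, an apolipoprotein of low level here, had 0.546, 0.947 and 0.961 CPM in proximal-type tumours, against 0.0924 to 0.535 CPM (median 0.281) in distal-type tumours (log2 fold change 1.51, SE 0.39, edgeR adjusted p = 0.026), a call lost without wt 2. The part of immune cells in the other differences was not tested.

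The proximal-type difference could be looked at in separate tumours. Within the wt tumours alone, wt 1 and wt 2 differed from wt 3 to wt 6 in 220 genes higher (1.55% of 14182 tested) and 34 lower (0.24%). In 189 of the 220 (85.9%), het 4 also lay above all 5 other het tumours, a position it took in 13.1% of all these genes. In 25 of the 34 lower genes (73.5%) het 4 lay below all 5, against 17.1% of all genes. The median log2 difference of the 220 genes was 1.94 in wt and 1.0 in het, and that of the 34 was -1.85 and -0.83. The comparison in het rests on 1 tumour and has no replicate. A test of the interaction of type and genotype called 0 of 14642 genes (591 at an unadjusted p below 0.05, smallest edgeR adjusted p = 0.858), which does not show that the genotypes responded alike, and het 4 is the one library labelled small intestine, so site label and genotype cannot be told apart in it.

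**Figure D5:**
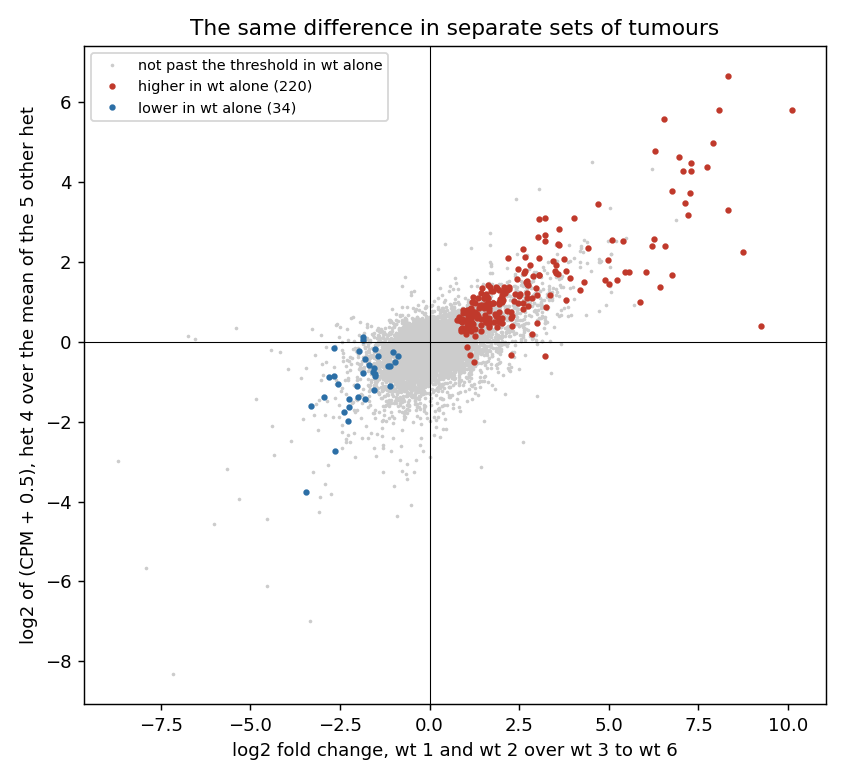
Each point is 1 of 14182 genes, with the edgeR log2 fold change of wt 1 and wt 2 over wt 3 to wt 6 on the x axis and the log2 difference in CPM + 0.5 of het 4 over the mean of the 5 other het tumours on the y axis. The 220 genes called higher in wt (red) lie mostly above 0 in het, with a median of 1.0, and the 34 called lower (blue) mostly below it, with a median of -0.83.

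Among the 3 proximal-type tumours, the 748 genes called higher were most often highest in wt 2, in 442 genes, then in wt 1, in 242, and least often in het 4, in 64. The distal-type tumour that came closest was het 3 in 30.2% of the 748 genes, hom 6 in 25.3% and hom 3 in 18.6%, against 6.81%, 10.2% and 12.9% of all tested genes. A principal component analysis of 1000 genes chosen for their variance put 43.6% of it on its first axis, where the proximal-type tumours stood at 32.2 to 47.6 and the distal-type tumours at -71.3 to 26.6, so the nearest distal-type tumour, hom 6, was close to het 4 on that axis. Gata4 was not taken out before these genes were chosen, so the axis is a description only.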

How the data were processed

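RNA of 18 tumours, prepared by the AllPrep DNA/RNA Mini kit, was made into libraries with the TruSeq Stranded Total RNA kit, per the labels' protocols, and the labels give the molecule as polyA RNA. Trimmomatic, TopHat, featureCounts of Subread 1.4.5-p1 and mm10 are named in the submitters' processing notes, without the counting options or strand setting, so overlapping and antisense genes cannot be told apart. The deposited counts are raw reads per gene of 24062 genes. The deposited RPKM values, made by the authors, were used only for levels between genes.

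Counts were scaled by TMM, filtered by edgeR's filterByExpr (minimum count 10) and fitted with edgeR's quasi-likelihood test (edgeR 4.0.16, limma 3.58.1, R 4.3.3) on genotype and type, with Benjamini-Hochberg adjustment over 14642 genes without Gata4 and a threshold of 0.05. Log2 fold changes are proximal-type over distal-type. DESeq2 1.42.0 and other settings were alternatives, and the fit was tested on simulated data. The titles number the mice within a genotype, and no libraries agreed within sampling noise, so each counts as 1 replicate. Depth sets the precision: at 13529204 counts, 3 counts are 0.222 CPM (counts per 1000000).

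The members and gene lists were chosen with earlier results of these data known. Named were the 15 genes per direction with the smallest p among those called, at least 1 log2 unit apart, separate between the types and above a mean log2 CPM of 0, without predicted genes; up to 4 called members per list and direction; and a fixed set of genes of gut regions and cell states, whatever their values. Any other gene named, such as Treh, Mttp, Apob, Apoa1, Apoa4, Apoc3, Apoa5, Adh5, Adh7, Axin2 and the genes given as not past the threshold, was chosen after its values were seen. A few genes that the rule names are not reported here.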

Additional observations from a re-analysis of the deposited data

Results flagged for a closer look

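Among 360 groups of 4 to 6 distal-type tumours of 1 genotype, for 120 genes, 23 held a tumour far from the others. A tumour was far when its gap to the nearest other tumour, over the range of the group, passed Dixon's critical value, a level at which chance flags about 1 in 20 groups.

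The distal-type tumour het 3 stood apart from the 4 other distal-type het tumours in 7 genes that were higher in proximal-type tumours. It had 26.5 CPM of Sec14l2 against 10.2 to 13.3 CPM, 5.67 CPM of Efr3b against 2.92 to 3.26 CPM, and 76.9 CPM of Rmdn3 against 46.4 to 52.7 CPM. Vil1 was at 1713 CPM in het 3, Acsl5 at 892 CPM, Slc25a45 at 49.5 CPM and Slc23a1 at 5.62 CPM, each above the 4 others.

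The distal-type tumour het 6 stood below the other distal-type het tumours in 4 genes, with 16.7 CPM of Tmigd1 against 264 to 462 CPM, 162 CPM of Wif1 against 546 to 616 CPM, 91.9 CPM of Tcf7 and 93.4 CPM of Alb.

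Among distal-type hom tumours, hom 6 was highest in Gstt1 (8.40 CPM) and Pdx1 (3.62 CPM), hom 3 in Onecut2 (282 CPM), Adh4 (1.51 CPM) and Axin2 (434 CPM), hom 2 in Plekhf1 (4.30 CPM) and hom 1 in Car1 (5.39 CPM). The lowest were hom 5 in Cox7a1 (17 CPM) and hom 2 in Krt20 (573 CPM). Among distal-type wt tumours, wt 6 was highest in Car1 (6.61 CPM), wt 3 was highest in Slc11a2 (76.6 CPM) and wt 5 was lowest in Chga (2.75 CPM).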

How the results depend on the processing

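Without 1 tumour at a time, genes higher ran from 331 to 909 and genes lower from 58 to 434, both lowest without wt 2, while genes above without overlap ran from 471 to 754 and genes below from 223 to 738. DESeq2 called 1163 higher and 652 lower, holding 97.6% of the main calls. Limma-voom held 90.5% of the main calls, the replicate number as a block 77.9% and no genotype term 75.1%. The share held was 49.7% without wt 1 and 34.9% without wt 2, so similar totals did not mean the same genes. Wt tumours alone gave 220 and 34, het 4 against distal-type tumours 18 and 1, and a fold change of at least 1 log2 unit 443 and 148. Without the distal-type tumours under 10 unscaled CPM of Gata4 the counts were 258 and 63. With a threshold of 10 unscaled CPM for Gata4, 14 tumours against 4, edgeR called 0 and 0 genes (904 at an unadjusted p below 0.05). Limma-voom, RLE scaling, no filter, no genotype term and Rn45s left out gave 690 to 822 higher and 234 to 376 lower. The causes were not tested. With the replicate number as a block 797 were higher and 328 lower. The 18 same-numbered pairs of different genotype had deviations correlated at -0.4 to 0.578 (median 0.053), 6 of them over 0.1. The 90 other pairs of different genotype ran from -0.571 to 0.489 (median 0.026), 31 of them over 0.1. These overlapping ranges cannot settle whether the numbers pair the tumours.

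Of the 93 named genes called and 26 not called, over 29 settings, 2368 values of called genes kept direction and call, 307 kept only the direction and 1 turned round, Fabp6 at 0.20 with the threshold of 10 unscaled CPM. The other log2 fold changes that turned round belonged to genes not called. Without the genotype term these were Apc (-0.06), Gata5 (0.01) and Cdx1 (-0.04). For het 4 against distal-type tumours they were Macrod2 (-0.39), Gata5 (0.14), Cdx1 (-0.34), Cdx2 (-0.06), Adh5 (0.07) and Mki67 (0.38). With the threshold of 10 unscaled CPM they were Macrod2 (-0.41), Cdx1 (-0.20) and Axin2 (0.13), and without the distal-type tumours under it Epcam (0.02). With 1 tumour left out, log2 fold changes ran from -0.07 (without wt 1) to 0.31 in Macrod2, from -0.01 (without wt 4 or het 4) to 0.22 in Apc, from -0.20 (without wt 1) to 0.32 in Cdx1, from -4.74 to 1.05 (without wt 6) in Car1 and from -0.62 to 0.02 (without wt 2) in Mki67. The cause was not tested.

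The split rests on 3 proximal-type tumours, none of them hom, and het 4 is the only one labelled small intestine. Depth limits the genes near the floor, such as Hoxc8, Pdx1 and Adh7.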

Other observations

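Gm766, a predicted gene left out by the naming rule, had the smallest p of all. Its log2 fold change was 6.67 (edgeR adjusted p = 6.55e-08). Gpr151, an orphan receptor gene of low level, was higher by 7.57 log2 units.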
